A study of Mus musculus with 12 samples.

Results

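The Ccl2 to Ccl12 cluster holds the mouse genes of 5 CC chemokines, Ccl2, Ccl7, Ccl11, Ccl12 and Ccl8, which lie in this order along 81.2 kb of chromosome 11 (mm10). Accessible regions were assigned to it when a merged ATAC-seq peak, present in at least 2 of the 12 peak lists, lay within 50 kb of the span of any of these genes. This gave 17 of 76042 regions, between positions 81985577 and 82166799. A further 3 merged peaks in the same window were present in 1 list each and were left out, and the nearest region beyond the window lay 52.0 kb from Ccl2 and was called in 8 libraries. The regions were 347 to 3747 bp wide (median 1046 bp). The genes were chosen by calls already known: the ones that appeared after LPS in GFP cells at regions 23.0 and 33.2 kb from Ccl2. The LPS calls of these 2 regions are described here without a test, and counts that they enter are also given without them.

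ATAC-seq tags accessible DNA with a transposase. It was carried out on RAW264.7 cells, a mouse macrophage line, in 4 groups of 3 libraries: a stable line with an inducible Nur77 gene after LPS, the same line untreated, a stable line with an inducible green fluorescent protein (GFP) gene after LPS, and the GFP line untreated. All 4 groups, controls included, received 1 µg/ml doxycycline for 18 h to induce the introduced gene, and LPS (bacterial lipopolysaccharide) was given at 500 ng/ml for 1 h. Nur77 is the nuclear receptor encoded by Nr4a1 and is expressed here from an introduced construct. The labels name 1 Nur77 and 1 GFP line and do not say whether these were clones or pools, so a difference between the lines and an effect of Nur77 cannot be told apart, and they do not say whether replicates were separate cultures, so p-values measure the spread between these libraries, which may be technical.

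The lists held 36184 to 81467 peaks. Depth was read from the even spacing of the authors' fold values, which gives a background height of 0.402 to 1.45 reads per list and a lowest listed summit of 5 to 8 reads. Absence from a list therefore means that no peak could be called with the reads at hand, and does not mean closed chromatin. In bulk libraries, fewer cells with an open site and less access per cell cannot be told apart. Of the regions over or beside Nr4a1, one (chromosome 15, 101270092 to 101272260) was called in 6 of 6 Nur77 and 0 of 6 GFP libraries, which goes with the line labels. All 7 macrophage marker genes examined, among them Spi1 and Csf1r, had a region within 1000 bp of a gene end in all 12 libraries. Of 12 markers of T cells, B cells, fibroblasts and epithelium, Cd4, Cd79a and Col1a1 had one in all 12 libraries and the other 9 in none.

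CC chemokines are small secreted proteins that draw leukocytes along a gradient through receptors on the cell surface. Ccl2, Ccl7 and, in the mouse, Ccl12 act on the receptor Ccr2 and bring monocytes out of the bone marrow and into inflamed tissue. Ccl11, also called eotaxin, acts on Ccr3 and draws eosinophils, and mouse Ccl8 acts on Ccr8. In macrophages, LPS acts through the receptor TLR4 and the transcription factors NF-kB and AP-1 to induce Ccl2 rapidly, and Ccl2 is known to have an NF-kB bound element some distance upstream of its promoter.

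Promoter sequences from RefSeq (GRCm38.p6, 250 bases before to 50 after the start) were found for 2 of the 5 genes, Ccl12 and Ccl8, both on the plus strand. They are shown because the neighbouring genes differed in calls: the Ccl12 promoter (chr11:82101595-82101894) lay inside an accessible region, and the Ccl8 promoter (chr11:82114935-82115234) overlapped none. The Ccl12 region was weak, called in 5 of 12 libraries on 6 to 13 reads and in 0 of the lists when these were cut to equal length. The lack of a call at Ccl8 does not show that the 2 promoters differ in access. Capitals mark the letters of the TATA box motif.
Ccl12: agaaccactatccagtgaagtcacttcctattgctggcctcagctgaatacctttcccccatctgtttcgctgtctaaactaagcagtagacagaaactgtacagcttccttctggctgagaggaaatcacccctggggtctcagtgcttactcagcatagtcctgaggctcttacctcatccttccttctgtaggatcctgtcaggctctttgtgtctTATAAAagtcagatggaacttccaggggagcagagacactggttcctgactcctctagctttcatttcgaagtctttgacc
Ccl8: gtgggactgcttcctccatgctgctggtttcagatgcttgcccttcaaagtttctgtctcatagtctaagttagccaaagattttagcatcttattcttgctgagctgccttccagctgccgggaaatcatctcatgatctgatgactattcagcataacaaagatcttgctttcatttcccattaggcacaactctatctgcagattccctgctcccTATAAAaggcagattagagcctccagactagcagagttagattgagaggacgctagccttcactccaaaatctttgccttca
Of 8 motifs searched on both strands, the letters TATAAA had 1 match in each promoter, beginning 31 bases before the start in Ccl12 and 32 in Ccl8. This motif is held by 13.6% of the 32851 promoters in the table. No match was found in either window for AP-1 (TGANTCA, 7.81% of promoters), NF-kB (4.79%), the Nur77 element (AAAGGTCA, 1.51%), the interferon element (3.44%), C/EBP (TTGNNCAA, 6.4%), PU.1 (GAGGAAGT, 3.2%) or the GC box (GGGCGG, 35.7%). No motif overlapped another.

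Accessibility was unevenly spread over the cluster. Within 50 kb, Ccl2 and Ccl7 each had 15 regions and Ccl11 had 13, against 4 each for Ccl12 and Ccl8 and a median of 8 over 21887 protein-coding genes. All 4 regions that were called in every library lay at or below Ccl2 in coordinate, one over the gene and the others 11.1, 18.4 and 27.5 kb from it. The nearest of them was 8.6 kb from Ccl7, 20.7 kb from Ccl11, 64.7 kb from Ccl12 and 78.0 kb from Ccl8. The widest stretch without a region, 37.3 kb, contained Ccl8. Regions called in all 12 libraries made up 23.5% of the cluster and 34.7% of all regions.

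**Figure D1:**
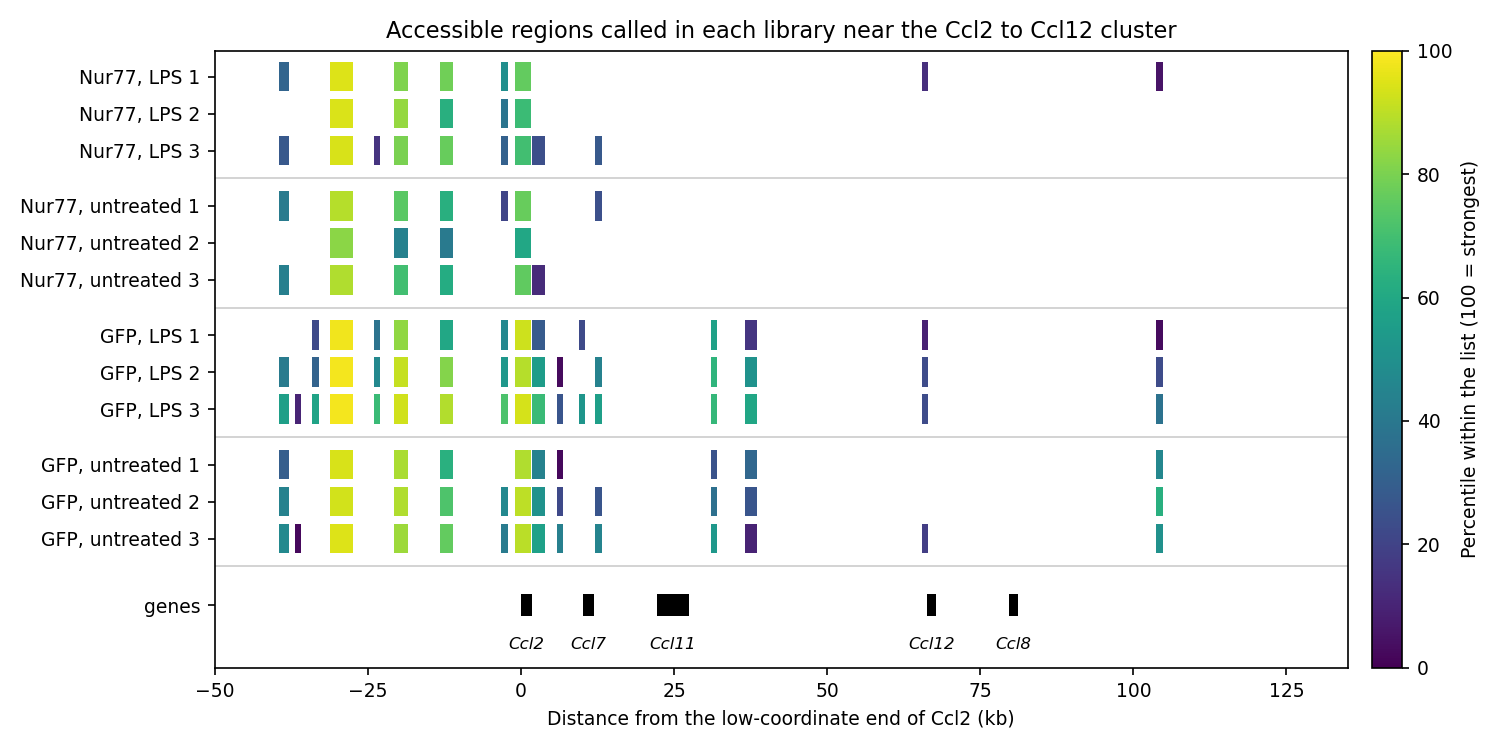
Regions called in each library (rows, 4 groups of 3) against distance from the low-coordinate end of Ccl2 in kb; each bar is a merged region, drawn at least 1 kb wide and coloured by the percentile of its strongest peak in that library's list, and black bars are the genes. At the 2 regions between Ccl11 and Ccl12 bars appear in the 6 GFP libraries and in none of the 6 Nur77 libraries.

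Calls differed between the lines in 1 direction. Of the 17 regions, 13 were called in more GFP than Nur77 libraries and 0 in more Nur77 libraries, against 40.2% and 12.8% of all regions. The 13 are all the cluster regions that were not called everywhere. They include both regions that chose the genes, and 6 of the 17 entered the cluster through GFP libraries alone, so the count is a description and supports nothing. Without the regions that chose the genes it was 11 of 15. Over all regions not called everywhere, 61.6% were called in more GFP libraries and 19.6% in more Nur77 libraries. The Nur77 lists were shorter than the GFP lists on average, so the same was counted in lists shortened to the size of the smallest one. There 8 of the 12 cluster regions left were called in more GFP and 0 in more Nur77 libraries, against 21.8% and 21.6% of all regions. Without the regions that chose the genes it was 7 of 11 and 0. Most of these regions were listed there by GFP libraries alone, so nothing is read from the equal-length counts either.

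Counted per library, Nur77 cells called few of the 17 regions. The LPS-treated Nur77 libraries called 8, 5 and 9 for replicates 1, 2 and 3, and the untreated Nur77 libraries 7, 4 and 6. The LPS-treated GFP libraries called 13, 15 and 17, and the untreated GFP libraries 10, 12 and 14. The highest Nur77 library (9) was below the lowest GFP library (10). However, 6 of the 17 regions entered the cluster through GFP libraries alone, and they lower the Nur77 counts by construction. Nothing is read from this separation. Over the 15 regions that did not choose the genes, Nur77 libraries called 4 to 8 and GFP libraries 10 to 15. Regions called in GFP libraries alone were still among these 15. Of all calls possible at the 17 regions, 38.2% were made in Nur77 and 79.4% in GFP cells. Over all regions it was 60.8% in Nur77 and 71.8% in GFP cells. Replicate 2 of each LPS group had nearly the same background height, 0.665 reads in Nur77 and 0.676 in GFP cells. These libraries called 5 and 15 of the cluster regions, and 54.6% and 67.5% of all regions. The 15 include both regions that chose the genes. The part of depth in the difference between the lines was not tested.

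**Figure D2:**
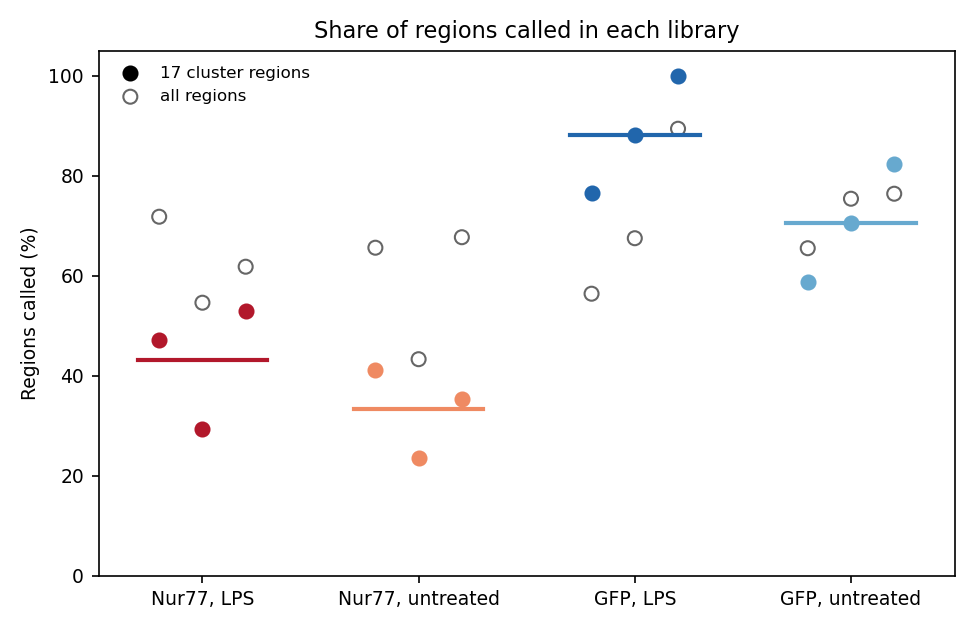
Percentage of regions called in each library, by group. Filled points are the 17 cluster regions, horizontal bars their group means, and open points all 76042 regions of the same library. The filled point lies below the open one in all 6 Nur77 libraries and in 2 of 6 GFP libraries, replicates 1 and 2 of the untreated group.

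Between Ccl11 and Ccl12, peaks were called in GFP libraries and in no Nur77 library. The region 3.8 kb beyond Ccl11 (82066790 to 82067514) and the one 9.1 kb beyond it (82072098 to 82074118) were each called in 0 of 6 Nur77 and 6 of 6 GFP libraries. Of all regions, 0.568% had this pattern and 0.0579% the opposite one. Both regions entered the cluster through GFP libraries alone, so nothing is read from these shares. Within a list, each peak's percentile by the authors' -log10 q was taken, with the strongest peak highest. The region at 3.8 kb stood at 57.4, 64.9 and 66.5 in LPS-treated GFP libraries and at 25.7, 36.4 and 53.2 in untreated ones. All 3 values after LPS were above the 3 untreated ones, but ranks from lists of different lengths do not show a change. The region at 9.1 kb stood at 15.5, 51.0 and 59.0 in LPS-treated GFP libraries and at 33.1, 26.2 and 9.5 in untreated ones, which overlap. GFP LPS replicate 1, with a background of 0.411 reads, listed both regions with summits of 17 and 7 reads. Nur77 untreated replicate 3, with a background of 1.254 reads, listed neither, as was true of every Nur77 library. The part of depth in this was not tested.

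Two-sided Fisher's exact tests on calls in 6 Nur77 against 6 GFP libraries were run over the 20292 regions called in 4 to 8 libraries, of which 8 lay in the cluster, the region 23.0 kb from Ccl2 among them. After Benjamini-Hochberg adjustment over all of them, 0.0% passed 0.05 in either direction, and both regions beyond Ccl11 stood at the lowest value reached (p = 0.00216, the smallest that 6 against 6 allows, adjusted p = 0.0923, Fisher's exact test). In Fisher's exact test at an unadjusted p under 0.05, 4 of the 8 cluster regions were less often called in Nur77 cells and 0 more often, against 7.32% and 0.651% of the regions tested. The other 2 of the 4 were the region 3.5 kb below Ccl7 (0 of 6 Nur77 and 5 of 6 GFP libraries) and the region 22.5 kb beyond Ccl8 (1 of 6 Nur77 and 6 of 6 GFP libraries, exact p = 0.0152 and adjusted p = 0.19 for each). The 4 do not include the region 23.0 kb from Ccl2. Both regions beyond Ccl11 and the one 3.5 kb below Ccl7 entered the cluster through GFP libraries alone. Nothing is therefore read from the count of 4. In lists of equal length 4 cluster regions could be tested, and 1 was less often called in Nur77 cells and 0 more often at an unadjusted p under 0.05 in Fisher's exact test, against 6.63% and 3.77% of 10405 regions. It was the one at the high-coordinate end of Ccl2 (exact p = 0.00216, adjusted p = 0.0591), and the region 3.8 kb beyond Ccl11 was at 0 of 6 Nur77 and 4 of 6 GFP libraries there (exact p = 0.0606, adjusted p = 0.3). Both regions were listed there by GFP libraries alone, so nothing is read from these counts either. After adjustment 0.0% passed in these lists too.

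Taking the treatments apart, a region was termed lost in Nur77 cells when 0 of 3 Nur77 and 3 of 3 GFP libraries called it, and gained in the opposite case. In untreated cells 4 of the 17 regions were lost and 0 gained, against 3.4% and 0.308% of all regions. Besides the regions beyond Ccl11, the lost ones were those 3.5 kb below Ccl7 and 22.5 kb beyond Ccl8. After LPS 3 were lost and 0 gained, against 2.18% and 0.304% of all regions, the third being the region 33.2 kb below Ccl2, whose calls chose the genes. Without it 2 were lost. Among the lost regions, 1 untreated and 0 after LPS had a call in any Nur77 library. The others entered the cluster through GFP libraries alone, so nothing is read from either count. The counts moved with single libraries. Without Nur77 LPS replicate 1 the lost regions after LPS numbered 5, with the regions at the Ccl12 promoter and beyond Ccl8 added, and without Nur77 LPS replicate 3 they also numbered 5, with those 23.0 kb below Ccl2 and at the high-coordinate end of Ccl2 added. Both counts include the region 33.2 kb below Ccl2, and the latter also the one at 23.0 kb, whose calls chose the genes too. In lists of equal length, 2 regions were lost in untreated cells and 3 after LPS, and the region at the high-coordinate end of Ccl2 was lost in both. The 3 include the region 23.0 kb below Ccl2, whose calls chose the genes, and without it 2 were lost. The region 3.8 kb beyond Ccl11 was lost in these lists after LPS, and the one at 9.1 kb in neither treatment. All regions lost in the equal-length lists were listed there by GFP libraries alone. The shares of all regions lost in such lists, or with single libraries left out, were not counted. Nothing is therefore read from these counts.

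The region over Ccl2 was less prominent in Nur77 cells in both treatments. It ran from 82034659 to 82037155, and its summit lay 63 bp below the low-coordinate end of the gene, with summits of the 12 libraries between 82035497 and 82035541. It was called in every library, so its prominence was compared by its percentile among the 26378 regions that all 12 libraries called, a set of the same size in each. The LPS-treated Nur77 libraries gave 47.2, 48.0 and 43.2, and the LPS-treated GFP libraries 85.9, 76.7 and 80.6. The untreated Nur77 libraries gave 51.7, 47.0 and 49.3, and the untreated GFP libraries 76.0, 75.7 and 75.2. All 6 Nur77 libraries lay near the middle of the set and all 6 GFP libraries well above it, with no overlap.

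Group means were 46.1 ± 2.6 in Nur77 and 81.1 ± 4.6 in GFP cells after LPS, and 49.3 ± 2.4 in Nur77 and 75.6 ± 0.4 in GFP cells without LPS (SD, n = 3 each). Ranks were converted to normal scores and fitted with limma over all 26378 regions. The region fell in Nur77 cells by 0.99 ± 0.12 normal-score units after LPS (SE, limma, adjusted p = 1.7e-06) and by 0.71 ± 0.12 without it (SE, limma, adjusted p = 0.00018). Adjusted p was at most 7.8e-05 after LPS and 0.002 without LPS over all alternatives run, among them each library left out. Of the regions tested, 5.9% fell and 3.21% rose in Nur77 cells after LPS, and 5.22% fell and 3.1% rose without LPS.

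Within a list the authors' fold at the summit orders these regions exactly as their -log10 q does, so it is the same measurement on another scale. It was 32.70, 25.83 and 24.20 in LPS-treated Nur77 libraries and 41.11, 44.76 and 71.84 in LPS-treated GFP libraries. In untreated libraries it was 31.84, 17.12 and 32.83 in Nur77 and 48.46, 55.50 and 56.08 in GFP cells. These values rest on 64, 42 and 38 reads at the summit in LPS-treated Nur77 and 57, 74 and 175 in LPS-treated GFP libraries. The strongest peak in the region was also narrower in Nur77 cells, covering 921, 721 and 753 bp after LPS and 933, 641 and 799 bp without LPS, against 1629, 1276 and 1443 bp after LPS and 1153, 1429 and 1218 bp without LPS in GFP cells. The widths of the lines did not overlap, but how many of all regions differ in this way was not counted. Width also moves with depth, and its part in this was not tested.

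**Figure D3:**
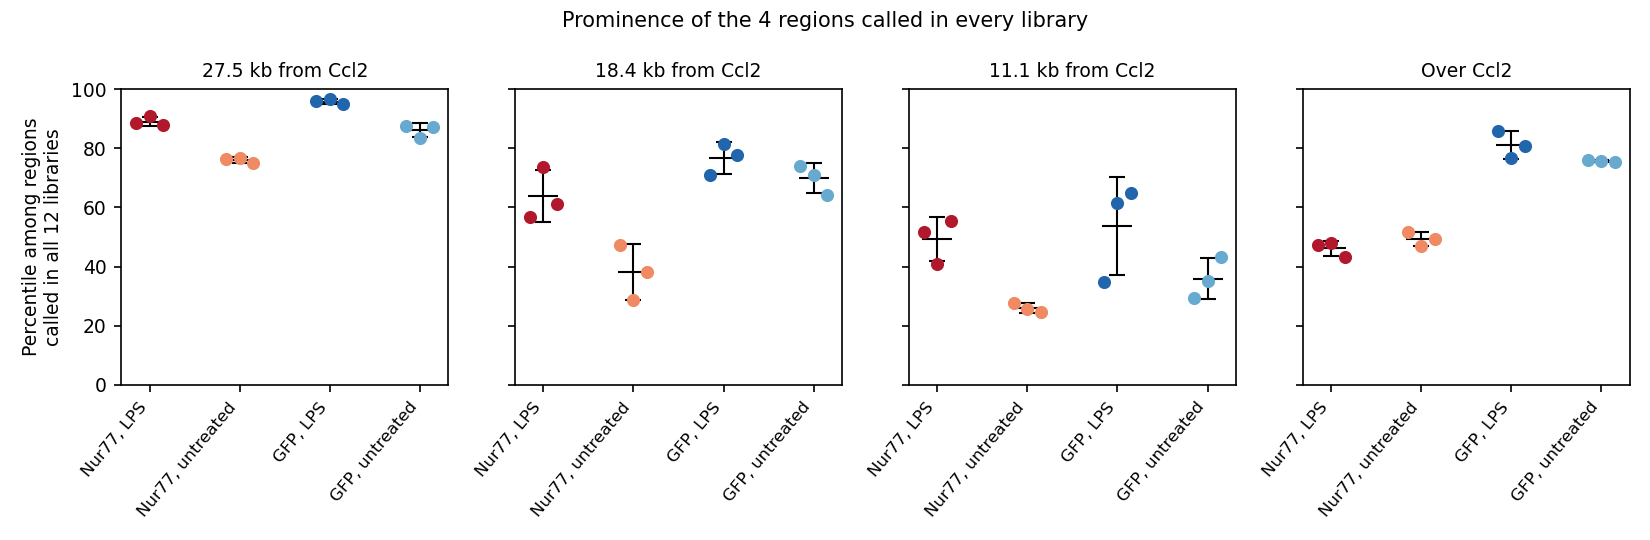
Percentile of the 4 regions called in every library, among the 26378 such regions, by group. Points are libraries, and black bars the mean ± SD (n = 3). Over Ccl2 the Nur77 libraries lie between 43.2 and 51.7 and the GFP libraries between 75.2 and 85.9, and 27.5 kb from Ccl2 the LPS-treated libraries of each line lie above the untreated ones.

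Of the 3 other regions called everywhere, all on the low-coordinate side of Ccl2, the one 18.4 kb away (82014763 to 82017191) also fell in untreated Nur77 cells. Its percentile was 47.4, 28.7 and 38.3 in untreated Nur77 and 74.1, 71.1 and 64.2 in untreated GFP libraries, without overlap (difference -0.83 ± 0.14 normal-score units, SE, limma, adjusted p = 0.00022). After LPS it stood at 56.9, 73.6 and 61.1 in Nur77 and 70.9, 81.5 and 77.7 in GFP libraries, which overlap (-0.37 ± 0.14, SE, limma, adjusted p = 0.102). The threshold was passed without Nur77 LPS replicate 2 (limma, adjusted p = 0.0466). A missed threshold does not show that the lines were alike here. The region's strongest summit lay at 82015297 to 82015333 in GFP libraries. In Nur77 libraries it lay at 82016554 to 82016561 after LPS and at 82015313, 82016666 and 82015341 without LPS. These ranks thus in part compare different summits within 1 region.

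The region 27.5 kb from Ccl2 (82004321 to 82008067) was the most prominent of the cluster and the widest, at 3747 bp. It fell in Nur77 cells after LPS, to 88.4, 90.8 and 87.7 against 95.8, 96.6 and 94.9 in GFP cells (-0.50 ± 0.10, SE, limma, adjusted p = 0.0016). Without LPS it stood at 76.5, 76.8 and 75.0 in Nur77 and 87.6, 83.5 and 87.3 in GFP libraries (-0.38 ± 0.10, SE, limma, adjusted p = 0.017). The untreated call was lost without GFP untreated replicate 1 (limma, adjusted p = 0.0783), GFP untreated replicate 3 (0.0816) or Nur77 untreated replicate 3 (0.0615). The region 11.1 kb away (82022367 to 82024464) passed in neither treatment (-0.11 ± 0.18 after LPS and -0.28 ± 0.18 without it, SE, limma, adjusted p = 0.78 and 0.4).

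In the surrounding chromosome differences lay on both sides of 0, but without LPS no fall there passed the threshold. Among 77 regions called everywhere between 50 kb and 2 Mb from the cluster, 3 fell and 3 rose in Nur77 cells after LPS, and 0 fell and 3 rose without LPS, at median differences of 0.07 and 0.04 normal-score units. In the cluster 2 of 4 fell after LPS and 3 of 4 without it, with medians of -0.44 and -0.54. Of all regions called everywhere, 5.9% fell and 3.21% rose after LPS, and 5.22% fell and 3.1% rose without it. Calls in the same neighbourhood (217 regions) were made in 65.4% of cases in Nur77 and 72.9% in GFP libraries. Of these regions 0 were called in every GFP and no Nur77 library, against 0.568% of all regions. At so low a share nothing is read from this 0.

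**Figure D4:**
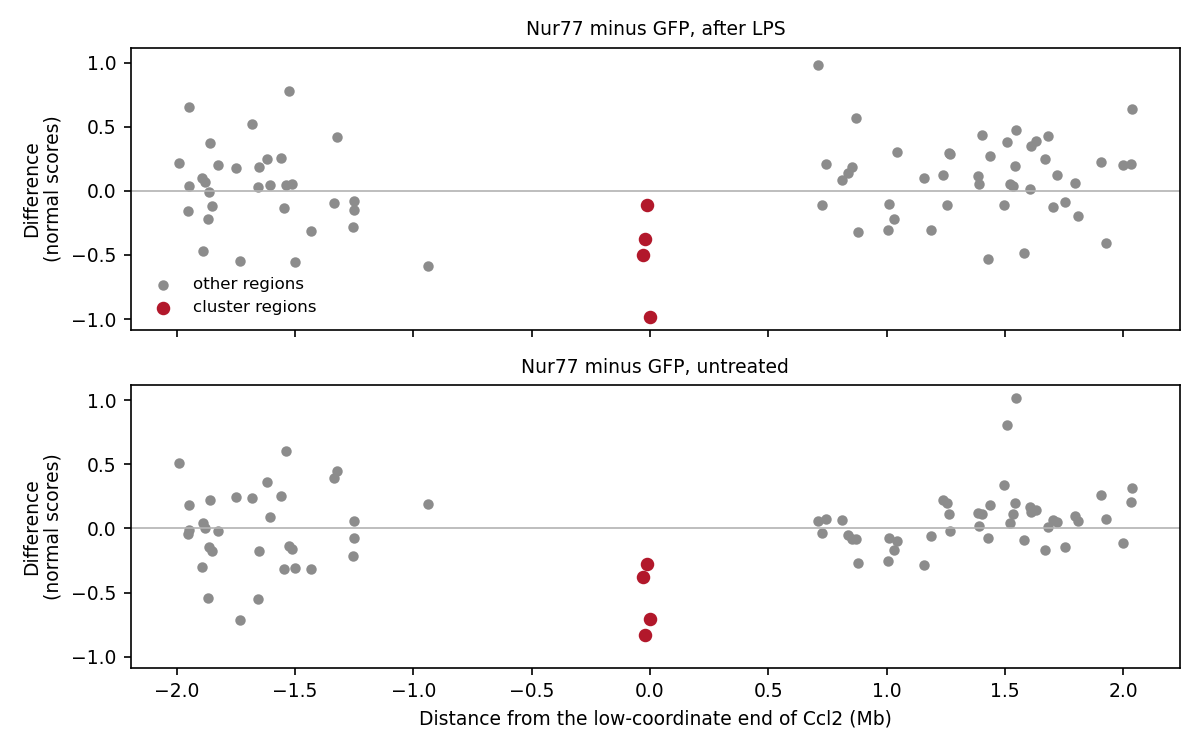
Difference in prominence between Nur77 and GFP cells, in normal scores (limma), for regions called in all 12 libraries within 2 Mb of the cluster, against distance from the low-coordinate end of Ccl2 in Mb; upper panel after LPS, lower panel untreated. The 4 cluster regions (red) all lie below 0, and the 77 others (grey) lie on both sides of it.

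The other comparison was LPS against untreated cells within a line. Of the 17 regions, 6 were called in more LPS-treated and 2 in more untreated libraries, against 26.1% and 24.8% of all regions, and 2 of the 6 are the regions that chose the genes. Ranks were fitted only for the 4 regions called in every library, which all lay at or below Ccl2 in coordinate. No rise elsewhere in the cluster could be found by this test. The region 27.5 kb away rose in both lines, to 88.4, 90.8 and 87.7 in LPS-treated against 76.5, 76.8 and 75.0 in untreated Nur77 cells (0.52 ± 0.10 normal-score units, SE, limma, adjusted p = 0.00063), and to 95.8, 96.6 and 94.9 in LPS-treated against 87.6, 83.5 and 87.3 in untreated GFP cells (0.64 ± 0.10, SE, limma, adjusted p = 3.3e-05). Neither line overlapped with itself across treatments. Of all regions tested, 8.58% rose and 6.0% fell with LPS in Nur77 cells, and 10.7% rose and 8.57% fell in GFP cells.

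The region 18.4 kb away rose with LPS in Nur77 cells, to 56.9, 73.6 and 61.1 against 47.4, 28.7 and 38.3 in untreated cells (0.67 ± 0.14, SE, limma, adjusted p = 0.0013). The strongest summit was not at the same place in all of these Nur77 libraries, as given above. This rise thus in part compares different summits within the region. In GFP cells the region stood at 70.9, 81.5 and 77.7 with LPS and 74.1, 71.1 and 64.2 without, which overlap (0.21 ± 0.14, SE, limma, adjusted p = 0.33). The region 11.1 kb away rose in Nur77 cells, to 51.8, 40.9 and 55.3 against 27.6, 25.8 and 24.5 in untreated cells (0.63 ± 0.18, SE, limma, adjusted p = 0.017). That call was lost without Nur77 LPS replicate 1 (limma, adjusted p = 0.0657) or replicate 3 (0.0955). In GFP cells the same region missed the threshold, at 34.8, 61.5 and 64.8 with LPS and 29.5, 35.0 and 43.2 without (0.46 ± 0.18, SE, limma, adjusted p = 0.0755). It passed without GFP LPS replicate 1 (limma, adjusted p = 0.00534) or with background height as a covariate (0.0399).

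Over Ccl2 itself no change with LPS passed the test in either line. The differences were -0.08 ± 0.12 in Nur77 cells (SE, limma, adjusted p = 0.74) and 0.20 ± 0.12 in GFP cells (SE, limma, adjusted p = 0.28). Tested directly, the LPS response did not differ between the lines at any of the 4 regions past the threshold. The difference of responses, Nur77 minus GFP, was -0.12 ± 0.15 at 27.5 kb, 0.46 ± 0.20 at 18.4 kb, 0.17 ± 0.26 at 11.1 kb and -0.28 ± 0.17 over Ccl2 (SE, limma, adjusted p = 0.89, 0.61, 0.93 and 0.76). Over all 26378 regions 0.0% passed this limma test in either direction. At an unadjusted p under 0.05 the response was higher in Nur77 cells at 983 regions and lower at 1005, and the lowest adjusted p was 0.141.

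In GFP cells 2 regions, both below Ccl2 in coordinate, were called in 3 of 3 LPS-treated and 0 of 3 untreated libraries, a pattern seen in 1.96% of all regions, and 0 the other way (1.02%). These are the regions by which the genes were chosen, so nothing is read from their count. The one 23.0 kb from Ccl2 (82011539 to 82012538) stood at 38.2, 46.5 and 67.9 in LPS-treated GFP libraries, on summits of 11, 17 and 43 reads. It was also called in 1 of 3 LPS-treated Nur77 libraries, at 15.1 on 9 reads. The one 33.2 kb away (82001631 to 82002401) stood at 22.3, 31.3 and 58.0 on 8, 12 and 31 reads, and was called in no Nur77 library. In both regions the LPS-treated GFP libraries with a greater background height had the higher value.

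In Nur77 cells 0 regions were gained and 0 lost with LPS, against 1.94% and 0.46% of all regions. The region 2.2 kb below Ccl2 (82032376 to 82033421) came nearest. It was called in 3 of 3 LPS-treated and 1 of 3 untreated Nur77 libraries, and in 3 of 3 LPS-treated and 2 of 3 untreated GFP libraries. Its percentile was 49.2, 38.3 and 30.8 in LPS-treated and 20.5 in untreated Nur77 cells, and 46.1, 53.0 and 71.8 in LPS-treated and 46.7 and 41.1 in untreated GFP cells. It was gained in Nur77 cells in lists of equal length or without Nur77 untreated replicate 1. In two-sided Fisher's exact tests on 6 LPS against 6 untreated libraries, 0 of the 7 cluster regions tested that did not choose the genes passed, adjusted or not. Of all regions tested, 0.0% passed after adjustment, and 5.56% were more often and 1.48% less often called at an unadjusted p under 0.05 in Fisher's exact test. In lists of equal length calls were more frequent with LPS at 5.26% of regions and less frequent at 0.913% once adjusted, and at 10.7% and 4.32% by an unadjusted p under 0.05. There 1 of 4 cluster regions was more often called with LPS at an unadjusted p, the one 2.2 kb below Ccl2, in 6 of 6 LPS-treated and 1 of 6 untreated libraries (exact p = 0.0152, adjusted p = 0.101).

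The remaining regions were weak and are given gene by gene. The high-coordinate end of Ccl2 carried a region (82037446 to 82039442) listed by 2 of 6 Nur77 libraries, at 23.9 with LPS and 12.2 without, and in 6 of 6 GFP libraries, at 28.4, 54.9 and 67.9 with LPS and 44.1, 50.7 and 57.0 without. Both Nur77 values were below every GFP value, but these ranks come from lists of different lengths and only from libraries that called the region. The calls themselves did not pass (exact p = 0.0606, adjusted p = 0.345, Fisher's exact test). In lists of equal length it was called in 0 Nur77 and 6 GFP libraries, so it was kept there through GFP libraries alone and nothing is read from it.

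At Ccl7, 3 regions were weaker still. The region 3.5 kb below the gene (82041664 to 82042259) was called in 0 of 6 Nur77 and 5 of 6 GFP libraries, on 6 to 21 reads. A region over the low-coordinate end of the gene (82045431 to 82045777), with its summit 74 bp below that end, was called in 2 libraries, both LPS-treated GFP, at 22.3 and 52.0. The region 0.3 kb beyond the gene (82047820 to 82048621) was called in 2 of 6 Nur77 libraries, at 27.4 with LPS and 24.3 untreated, and in 4 of 6 GFP libraries, at 26.2 to 55.9.

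No region overlapped Ccl11, and the nearest was the one 3.8 kb beyond it. At Ccl12, the region over the promoter (82101172 to 82102014) had its summit 130 bp before the gene's start, within the promoter sequence shown. It was called in 1 of 6 Nur77 libraries, at 13.3 with LPS, and in 4 of 6 GFP libraries, at 9.2, 22.9 and 23.0 with LPS and 18.2 without. All of these ranks were low in their lists, on 6 to 13 reads. By treatment, 4 of 6 LPS-treated and 1 of 6 untreated libraries called it (exact p = 0.242, adjusted p = 0.897, Fisher's exact test). Of the 32851 promoters in the table, 41.9% overlapped a region and 36.5% one called in all 12 libraries.

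The nearest region to Ccl8 was that at the Ccl12 promoter, 13.2 kb away, and on its other side the nearest lay 22.5 kb away (82139275 to 82140370). This region was called in 1 of 6 Nur77 libraries, at 5.4 with LPS, and in 6 of 6 GFP libraries. Its percentiles in GFP cells were 3.0, 22.9 and 37.5 with LPS and 46.3, 62.9 and 50.2 without, with no overlap, but ranks from lists of different lengths do not show a change. In lists of equal length it was called in 0 of 3 LPS-treated and 3 of 3 untreated GFP libraries. Its summits held 5, 10 and 18 reads with LPS and 19, 30 and 25 without, while the background heights were 0.411, 0.676 and 1.45 reads with LPS and 0.919, 0.964 and 1.14 without. At the far low-coordinate end, the region 38.0 kb from Ccl2 (81996072 to 81997621) was called in 4 of 6 Nur77 and 5 of 6 GFP libraries, at 27.4 to 55.9 over both lines. The region 36.3 kb away was called in 2 GFP libraries, at 10.1 with LPS and 2.0 untreated.

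The receptors and the other CC ligands were read in the same way. Near 6 receptor genes (Ccr1, Ccr2, Ccr3, Ccrl2, Ackr1 and Ackr2) lay 52 regions, called in 54.5% of cases in Nur77 and 72.4% in GFP libraries. Near 9 other ligand genes lay 74 regions outside the cluster, at 68.9% in Nur77 and 77.5% in GFP libraries. After LPS 4 receptor regions were lost in Nur77 cells and 0 gained, against 2.18% and 0.304% of all regions, and in untreated cells 1 was lost and 0 gained, against 3.4% and 0.308%. Of the 4 lost after LPS, 3 were near Ccrl2, which encodes an atypical receptor that binds chemerin, and 1 was near Ackr1, which encodes a scavenging chemokine receptor of red cells and venules. Of 11 receptor regions called everywhere, 3 fell and 1 rose in untreated Nur77 cells (limma), among them a fall of the region over Ccrl2. Of 27 ligand regions called everywhere, 2 fell and 1 rose. Of all regions called everywhere, 5.22% fell and 3.1% rose in untreated Nur77 cells. After LPS 2 receptor regions fell and 1 rose, and 2 ligand regions fell and 1 rose, against 5.9% and 3.21%.

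With LPS, several regions near the other ligands rose. Of the 27 ligand regions called everywhere, 9 rose and 0 fell in Nur77 cells and 7 rose and 0 fell in GFP cells (limma). Over all regions 8.58% rose and 6.0% fell in Nur77 and 10.7% rose and 8.57% fell in GFP cells. The ligand regions that rose lay near Ccl3, Ccl4, Ccl5, Ccl6, Ccl9, Ccl17 and Ccl22 taking both lines together. The median difference was 0.04 in Nur77 and 0.29 in GFP cells, in normal-score units. A region 1.1 kb from Ccl5, which encodes a chemoattractant of T cells and monocytes, rose in both lines. In calls, 5 ligand regions were gained in Nur77 and 4 in GFP cells, and 0 were lost in either. Of all regions 1.94% were gained and 0.46% lost in Nur77 cells, and 1.96% gained and 1.02% lost in GFP cells. At Ccl1, the next gene beyond the cluster, the region 15.1 kb away was gained with LPS in GFP cells and lost in Nur77 against GFP cells after LPS.

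For a description of likeness, the share of a gene's regions called in each library, less the share of all regions called there, was compared with that of the cluster over the 12 libraries. Among 9192 genes with at least 10 regions, Pakap on chromosome 4 (r = 0.944, 37 regions), Hunk on chromosome 16 (r = 0.942, 13 regions) and D430019H16Rik on chromosome 12 (r = 0.942, 16 regions) were the most alike. These points share the libraries and their depth.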

How the data were processed

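Peaks of 12 ATAC-seq libraries were analysed as deposited, 1 narrowPeak list per library. The tools DiffBind 3.0.15 and cutadapt 2.6 and the build mm10 are named per the submitters' processing notes. An aligner and a peak caller were not given in the sources used here. Per the file headers (peak names), reads had a mapping quality of 20, mitochondrial and duplicate reads were removed, and peaks met a q-value of 0.001. The deposited score is the authors' whole number per peak, the deposited fold is the authors' ratio of summit to background, and the deposited -log10 p and -log10 q are the authors' values at the summit. They served to describe or rank peaks inside each list.

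Entries for several summits of 1 peak were reduced to the strongest, peaks overlapping or touching were merged over the lists, and regions in at least 2 lists were kept. A region was called where a list had a peak in it. Coordinates are 1-based. Genes came from a RefSeq table of GRCm38.p6, whose gene spans carry no strand or exons, so "below" and "beyond" refer to coordinates. Background height b was the value that made fold times (b + 1) a whole number, met by 100.0% of folds in every list within 0.1. Summit reads are fold times (b + 1) minus 1, and they cover counting error only.

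Calls were tested with two-sided Fisher's exact tests, and ranks over the 26378 regions called in all lists, as normal scores, with limma 3.58.1 (4 group means, trend), both with Benjamini-Hochberg adjustment over all regions tested at 0.05. The steps were tested on simulated data. Software was R 4.3.3, matplotlib 3.10.9, scipy 1.17.1, pandas 2.3.3 and numpy 2.4.6 under Python 3.11.15. All 17 regions are named, and other genes come from a list of receptors and ligands, 1 of which is not reported here. Members and lists were chosen with earlier results of these data known. Alternatives were lists trimmed to the shortest, a -log10 q of at least 5, other windows and list minimums, ranks by fold, percentile points, a depth covariate, a replicate block and each library left out. Motifs were searched only in the promoters, since no genome sequence was used here.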

Additional observations from a re-analysis of the deposited data

How the results depend on the processing

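In lists shortened to the size of the smallest one, gained regions with LPS numbered 1 in GFP cells (23.0 kb from Ccl2) and 1 in Nur77 cells (2.2 kb from Ccl2), lost regions with LPS numbered 1 in GFP cells (22.5 kb from Ccl8), and 2 regions were lost in untreated Nur77 against GFP cells. The region 23.0 kb from Ccl2 is among those that chose the genes. In the same lists 8 regions were called in a larger share of GFP libraries, 0 in a larger share of Nur77 libraries, and 1 in every GFP and no Nur77 library, the one at the high-coordinate end of Ccl2. Most of the 8 were listed there by GFP libraries alone, so nothing is read from these counts. The shares of all regions gained or lost in lists of this length, or with 1 library left out, were not counted. Within 100 kb, 1 region was lost with LPS in Nur77 cells, 80.6 kb from Ccl2. With background height as a covariate 2 regions called everywhere rose with LPS in GFP cells. With 1 library left out, gained regions with LPS numbered 2 to 3 in GFP and 0 to 1 in Nur77 cells, lost regions in Nur77 against GFP cells 3 to 5 after LPS and 4 to 5 untreated, and regions called everywhere that rose with LPS in GFP cells 1 to 2. The cause of these shifts was not tested.

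In rank fits whose adjusted p was far above 0.05, 3 differences changed sign. For the region at 11.1 kb, leaving out 1 library gave -0.354 to 0.0321 for Nur77 against GFP after LPS (above 0 without GFP LPS replicate 3) and -0.0738 to 0.312 for the difference of responses (below 0 without GFP LPS replicate 1). At 27.5 kb the difference of responses was 3.19 in percentile points. A requirement of overlap over at least part of the region or the peak cannot change a call, since each peak lies wholly inside its merged region. With the replicate number as a block the counts of regions past the threshold stayed at 3 higher (LPS in Nur77 cells), 1 higher (LPS in GFP cells), 3 lower (Nur77 against GFP, untreated) and 2 lower (after LPS). Same-numbered libraries of different groups correlated at -0.157 to 0.144 in their deviations from the group means, so the numbers were not taken to pair them. For the counts of regions by line, the alternatives were chosen after seeing the data. A -log10 q of at least 5 gave 12 regions called in a larger share of GFP libraries, and leaving out the shallowest or the deepest list gave 13 each. Without the regions that chose the genes it was 11.

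Of the 17 regions, 13 were missing from at least 1 list, and their presence in GFP lists rested on as few as 5 reads. Regions called in all 12 libraries made up 23.5% of the cluster and 34.7% of all regions. The part of depth in the missing calls was not tested.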
